A study of Mus musculus with 10 samples.

Results

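The genes described here are 10 genes of the ventral forebrain and of interneurons: Dlx2, Dlx5, Dlx6, Gad1, Gad2, Gsx1, Gsx2, Nkx2-1, Lhx6 and Isl1. They were chosen by name, each through the probe set that carries its symbol alone, and each of the 10 had exactly 1 such probe set among the 22180 genes of the array that could be tested. RNA was measured in cortices of CD1 mouse embryos of embryonic days 12 to 13 on Affymetrix Mouse Gene 2.0 ST arrays. The input group (4 arrays, numbered 1 to 4) held total RNA, the 4ET-IP group (3 arrays, numbered 1, 2 and 3) held RNA recovered with an antibody against 4E-T, and the IgG-IP group (3 arrays, numbered 2, 3 and 4) held RNA recovered with a control IgG. 4E-T, which binds the cap-binding protein eIF4E and represses translation, is the protein the study is about. The series text speaks of biological replicates, but nothing ties an array to a litter or a dissection, so the p-values measure the spread between these samples.

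The ventral telencephalon holds the ganglionic eminences, where Gsx2 and Gsx1 act in precursors, the Dlx genes act in precursors and newborn neurons, Nkx2-1 and then Lhx6 mark the medial eminence and its interneurons, and Isl1 marks striatal neurons. GABAergic interneurons born there migrate into the cortex, and GAD67 (Gad1) and GAD65 (Gad2) make their transmitter. Dorsal cortical precursors instead use Emx1, Pax6 and Neurog2 and give rise to glutamatergic neurons. Of the 10 genes, Gad1, Gad2, Lhx6 and the Dlx genes are known from such migrating interneurons, while Gsx1, Gsx2, Nkx2-1 and Isl1 mark the ventral side itself.

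All values are log2 levels from RMA, a method that gives every array nearly the same distribution of values, so a value is a level relative to the other RNAs of that array and says nothing of the amount precipitated. Input 1 and 4ET-IP 1 lay on a lower scale than the other 8 arrays, with probe set medians of 3.54 and 3.52 against 4.33 to 4.54, and 7.52% of their probe sets carried identical values (0.138% or less elsewhere). The fit of all 10 arrays therefore has a term for the number 1 beside the group. Genes with an adjusted p under 0.05 over the 22180 genes (limma, Benjamini-Hochberg) are said to be called, higher or lower. With group alone none of the 10 genes was called in any comparison, while in the 8 arrays without those 2 Gad2 was called over IgG-IP (1.20, adjusted p = 0.0181) and over input (1.15, adjusted p = 0.0116), and no other of the 10 was. The fit with group alone moved the median difference of all genes from 0.03 to -0.19 in 4ET-IP over IgG-IP, and from 0.03 to 0.20 in IgG-IP over input. It also changed the split of all calls, from 72.1% to 52.5% higher in 4ET-IP over IgG-IP, from 54.0% to 41.7% in 4ET-IP over input and from 36.9% to 26.7% in IgG-IP over input.

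The input level was examined first, since the tissue is cortex. The level of each probe set is given as its percentile among all genes of the same input array. Probe sets differ in their response, so these percentiles place each one on its arrays and give no order of RNA abundance between genes. Over the 4 inputs Dlx2 was at 63.9 to 71.5, Dlx5 at 73.8 to 83.8 and Dlx6 at 31.2 to 52.2. Gad1 was at 33.6 to 41.3 and Gad2 at 56.8 to 61.4, and Gsx1 was at 30.2 to 37.7 and Gsx2 at 43.7 to 57.7. Nkx2-1 was at 31.7 to 46.4, Lhx6 at 50.6 to 55.2 and Isl1 at 29.7 to 51.6. The place of Dlx6, Gsx2, Nkx2-1 and Isl1 moved by more than 10 percentiles between inputs.

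Chemoreceptor genes, which embryonic cortex is not known to use, gave a scale for probe sets without signal. In every input, Dlx5 was brighter than 99.9% of the 1432 chemoreceptor genes and Dlx2 than at least 99.4%. Gad2 was brighter than 98.6% to 99.4% of them, Lhx6 than 97.8% to 98.7% and Gsx2 than 95.6% to 99.0%. Gsx1 was brighter than 88.5% to 92.7%, Nkx2-1 than 88.8% to 97.2%, Gad1 than 90.7% to 95.3%, Dlx6 than 89.0% to 98.6% and Isl1 than 88.0% to 98.6%. These 5 probe sets are thus in the upper range of the chemoreceptors rather than clear of it. The ranges of Gsx2 and Lhx6 overlapped those of Dlx6 and Isl1. In IgG-IP Gsx2 was brighter than 94.3% to 97.6% of the chemoreceptors. The table has no detection calls.

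The markers of dorsal cortex were present in every input. Emx1, Pax6, Neurog2, Eomes, of intermediate progenitors, and Tbr1, of deep-layer neurons, were each brighter than at least 99.9% of the chemoreceptor genes. In bulk tissue fewer cells of a type and less RNA per cell cannot be told apart.

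The comparison of 4ET-IP with IgG-IP asks which RNAs were at a higher relative level with the 4E-T antibody than with a control antibody. Gad2 and Gsx2 were higher and none of the 10 genes was lower. These 2 of 10 stand beside 7.57% of all genes called higher in that comparison. Over the 10 genes the median log2 difference was 0.21, with 8 above 0. Over all genes the median was 0.03, with 11916 of 22180 above 0. With group alone the median was 0.12 with 6 of the 10 above 0, against -0.19 and 6620 over all genes.

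Gad2, the enzyme of synaptic GABA supply, gave the clearest difference. Its log2 levels were 5.70, 6.66 and 6.95 in 4ET-IP 1, 2 and 3, were 5.14, 6.05 and 5.62 in IgG-IP 2, 3 and 4, and were 4.78, 5.41, 5.70 and 5.83 in inputs 1 to 4. Both 4ET-IP 2 and 4ET-IP 3 lay above every IgG-IP and input array, and 4ET-IP 1, on the lower scale, lay above input 1. The fitted log2 difference over IgG-IP was 1.16 ± 0.23 (SE, 2.23-fold, adjusted p = 0.00794 in limma), and over input 1.09 ± 0.20 (2.12-fold, adjusted p = 0.00262). Within the pair of arrays numbered 1, 4ET-IP exceeded input by 0.92. The call over IgG-IP was lost without 4ET-IP 3 (adjusted p = 0.0637 in limma) and with group alone (0.83, adjusted p = 0.368), where that over input was lost too (1.01, adjusted p = 0.121). Adjusted p ranged from 0.00326 to 0.368 over all alternatives for the first comparison and from 7.95e-04 to 0.121 for the second.

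Gsx2, a homeobox gene of lateral eminence precursors, rose by a similar amount with more spread. Its levels were 5.53, 5.61 and 6.06 in 4ET-IP 1, 2 and 3, were 4.47, 5.38 and 4.89 in IgG-IP 2, 3 and 4, and were 3.66, 5.24, 5.50 and 4.56 in inputs 1 to 4. Every 4ET-IP array lay above every IgG-IP and input array, the one on the lower scale included. The difference was 1.12 ± 0.33 over IgG-IP (2.17-fold, adjusted p = 0.0494 in limma) and 1.07 ± 0.29 over input (2.10-fold, adjusted p = 0.0219). Input 1 was far below the other inputs, and within the pair numbered 1 the difference was 1.87.

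Gsx2 was close to the threshold over IgG-IP. That call was lost without each single one of 4ET-IP 1, 2 and 3, IgG-IP 2 and 4, and input 1, 2 and 3 (limma adjusted p 0.0522 to 0.172). It was also lost with the replicate number as a block (1.03, adjusted p = 0.0513), with group alone on centred arrays (1.01, adjusted p = 0.0579) and in the 8 arrays numbered 2 to 4 (0.92, adjusted p = 0.107). With group alone it was 0.82 (adjusted p = 0.447), and adjusted p ranged from 0.0284 to 0.447 over all alternatives. The call over input was lost without 4ET-IP 1 or 3 or input 1 or 4 (from 0.0554 to 0.164), in the 8 arrays (0.73, adjusted p = 0.164) and with group alone (0.99, adjusted p = 0.185). Its range over all alternatives was 0.0123 to 0.185.

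The comparison of 4ET-IP with input asks which RNAs were at a higher relative level in the precipitate than in the tissue. Dlx2 was called there with Gad2 and Gsx2, so that 3 of 10 genes were higher and none lower, beside 10.4% of all genes called higher. The median over the 10 genes was 0.26, with 7 above 0. Over all genes it was 0.04, with 12437 of 22180 above 0. With group alone the median was 0.21 with 6 of the 10 above 0, against -0.02 and 10272 over all genes. Both comparisons use the same 4ET-IP arrays, so they are not independent.

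Dlx2, a homeobox gene needed for interneuron production, had levels of 6.45, 6.56 and 6.70 in 4ET-IP 1, 2 and 3. They were 6.12, 6.39 and 6.002 in IgG-IP 2, 3 and 4, and 5.59, 5.97, 6.57 and 6.04 in inputs 1 to 4. Every 4ET-IP array lay above every IgG-IP array, while input 3 reached into the 4ET-IP range. The difference was 0.56 ± 0.18 over input (1.48-fold, adjusted p = 0.0423 in limma), and 0.53 ± 0.20 over IgG-IP, which was not called (adjusted p = 0.119). The call was lost without 4ET-IP 1, 2 or 3 or input 1, 2 or 4 (from 0.0740 to 0.210), in the 8 arrays (0.44, adjusted p = 0.210), with group alone on arrays centred on their medians (0.56, adjusted p = 0.0974) and with group alone (0.53, adjusted p = 0.292). Its adjusted p ranged from 0.0100 to 0.292 over all alternatives.

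**Figure D1:**
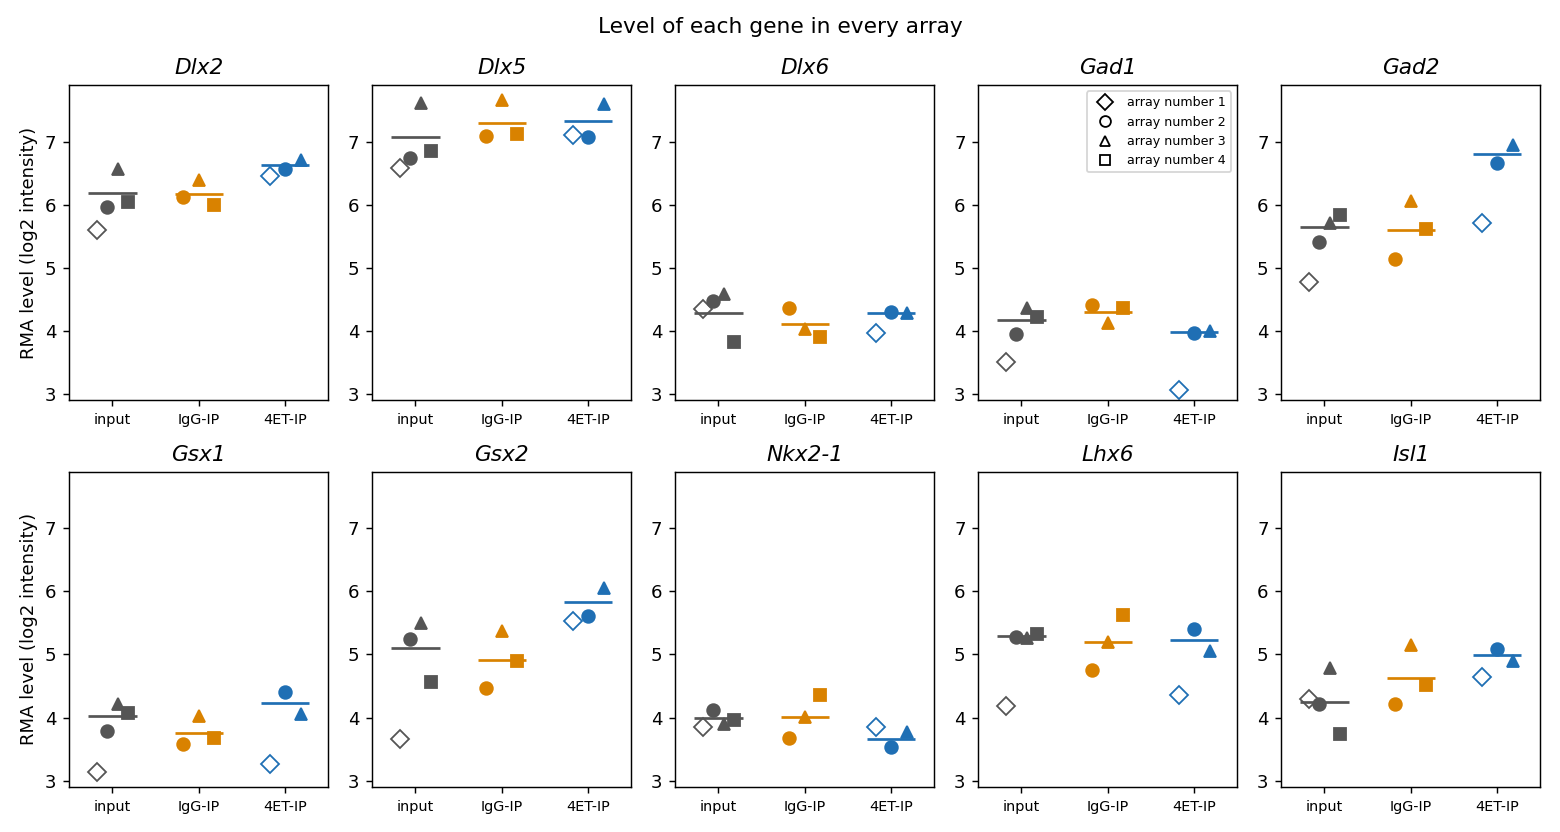
RMA level (log2 intensity, y axis) of the 10 genes in every array of the 3 groups (x axis). Marker shapes give the array number, open diamonds are the 2 arrays numbered 1 on the lower scale, and bars are means of the arrays numbered 2 to 4. For Gad2 the 4ET-IP arrays 2 and 3 (6.66 and 6.95) lie above every input and IgG-IP array, and for Gsx2 all 3 4ET-IP arrays do.

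The start regions of Gad2, Gsx2 and Dlx2 are shown because these 3 genes were called against IgG-IP or input. They are the 250 bases before the annotated start, from RefSeq on GRCm38.p6, 5′ to 3′ on the gene's strand. Gad2 is at chr2:22622077-22622326 (+ strand), Gsx2 at chr5:75075351-75075600 (+ strand) and Dlx2 at chr2:71546755-71547004 (- strand). Capitals mark an E-box of the form CACGTG, which reads the same on either strand, and a TATA box, with the letters TATAAA. Other forms of the E-box were not searched, and E-box below means CACGTG only.
Gad2: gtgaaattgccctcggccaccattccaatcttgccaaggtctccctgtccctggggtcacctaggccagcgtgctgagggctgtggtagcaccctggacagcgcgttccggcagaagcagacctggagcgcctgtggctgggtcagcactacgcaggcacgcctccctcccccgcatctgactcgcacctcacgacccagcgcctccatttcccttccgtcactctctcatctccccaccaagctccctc
Gsx2: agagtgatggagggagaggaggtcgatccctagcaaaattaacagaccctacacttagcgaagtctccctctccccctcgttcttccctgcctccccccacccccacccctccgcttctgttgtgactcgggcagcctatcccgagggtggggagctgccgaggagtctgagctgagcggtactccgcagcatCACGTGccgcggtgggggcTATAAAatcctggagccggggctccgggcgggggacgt
Dlx2: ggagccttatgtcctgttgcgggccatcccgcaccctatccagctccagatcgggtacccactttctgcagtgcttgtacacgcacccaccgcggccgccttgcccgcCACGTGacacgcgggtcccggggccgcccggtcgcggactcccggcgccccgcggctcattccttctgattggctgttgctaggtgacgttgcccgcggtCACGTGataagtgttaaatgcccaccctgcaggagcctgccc
Both strands were searched for both of these and for the core that many homeodomain proteins bind, with the letters TAATTA. No matches overlapped. The window of Dlx2 holds an E-box at 142 and at 42 bases before the start, and that of Gsx2 holds an E-box at 57 and a TATA box at 38 bases before the start. Gad2 holds none of the 3 in the letters given here. Among 32851 windows of the same length 6.02% hold the E-box, 12.4% the TATA box and 4.84% the homeodomain core. Of the 10 windows given for 8 of the 10 genes, 2 held the E-box, 2 the TATA box and 0 the homeodomain core. GC content was 64.0% for Gad2, 63.6% for Gsx2 and 66.4% for Dlx2. Among the genes not called it was 58.0% for Gad1, 54.0% for Gsx1, 50.8% for Nkx2-1 and 71.2% for Isl1, the highest. The windows of Lhx6 had 46.0%, 57.2% and 61.6%.

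The remaining genes were not called against either group. Isl1, a LIM homeobox gene, was at 4.64, 5.08 and 4.89 in 4ET-IP, at 4.21, 5.15 and 4.51 in IgG-IP and at 4.29, 4.21, 4.79 and 3.74 in input. Its 4ET-IP and IgG-IP ranges overlapped, with differences of 0.63 ± 0.26 over input (adjusted p = 0.123) and 0.30 ± 0.29 over IgG-IP (adjusted p = 0.613). Gsx1, the paralogue of Gsx2, was at 3.27, 4.41 and 4.06 in 4ET-IP and at 3.58, 4.02 and 3.67 in IgG-IP, with a difference of 0.46 ± 0.18 (adjusted p = 0.138). Over input the difference of Gsx1 was 0.19 ± 0.16 (adjusted p = 0.532).

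Dlx5 and Dlx6, neighbouring homeobox genes that act with Dlx2, had differences of 0.09 ± 0.26 and 0.12 ± 0.22 over IgG-IP, and 0.33 ± 0.23 and -0.12 ± 0.19 over input. Both 95% intervals over IgG-IP include 0, from -0.48 to 0.65 for Dlx5 and from -0.36 to 0.59 for Dlx6, so a change as large as that of Gad2 lies outside them. The sign for Dlx5 turned with group alone (-0.037), and that for Dlx6 with the replicate block (-0.025).

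Nkx2-1 and Lhx6, both of the medial eminence lineage, showed no called change. Nkx2-1 lay between 3.54 and 4.35 in all 10 arrays, at 3.85, 3.54 and 3.77 in 4ET-IP and 3.67, 4.01 and 4.35 in IgG-IP, and its difference was -0.30 ± 0.19 over IgG-IP (adjusted p = 0.401) and -0.24 ± 0.17 over input (adjusted p = 0.414). Lhx6 was at 4.35, 5.41 and 5.05 in 4ET-IP, at 4.75, 5.19 and 5.63 in IgG-IP and at 4.19, 5.27, 5.27 and 5.33 in input. Its difference was 0.08 ± 0.21 over IgG-IP, with a 95% interval from -0.39 to 0.55, and 0.01 ± 0.19 over input. With group alone the sign turned in both (-0.25 and -0.076).

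The comparison of IgG-IP with input gives the background of a precipitation with a control antibody. None of the 10 genes was called there, while 16.6% of all genes were called in either direction. In limma 0 of the 10 had an unadjusted p under 0.05, and 0 were called in each of the 17 alternatives tried. The differences lay between -0.28 for Gsx1 and 0.33 for Isl1, with a median of -0.01 against 0.03 over all genes. For Gad2 it was -0.07 ± 0.21 and for Gsx2 -0.05 ± 0.30, both positive with group alone (0.17 for each), and for Dlx2 it was 0.03 ± 0.18.

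**Figure D2:**
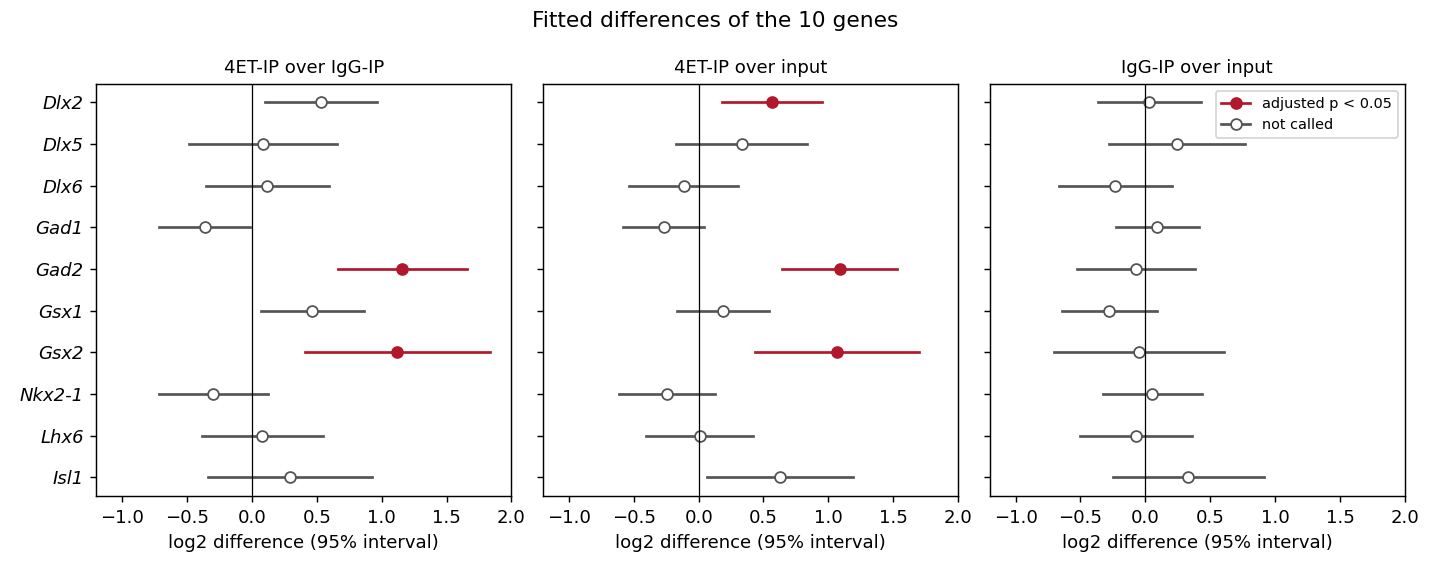
Fitted log2 differences (x axis, with 95% intervals as lines) of the 10 genes in the 3 comparisons. Filled red points were called at an adjusted p under 0.05 and open points were not. Gad2 and Gsx2 lie near 1 in both comparisons of 4ET-IP (1.16 and 1.12 over IgG-IP), Dlx2 is called over input only, and no gene is called in IgG-IP over input.

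Gad1 was not called beside Gad2. Gad1, which makes most of the GABA of the cell body, was at 3.06, 3.96 and 4.00 in 4ET-IP, at 4.41, 4.12 and 4.37 in IgG-IP and at 3.50, 3.95, 4.37 and 4.21 in input. The 4ET-IP arrays at 3.96 and 4.00 lay below every IgG-IP array. The 4ET-IP array at 3.06 is on the lower scale, which no IgG-IP array shares, so its place below them cannot be read as a difference between the groups. The fitted difference of -0.36 ± 0.16 was not called (unadjusted p = 0.0435, adjusted p = 0.193 in limma). Over input it was -0.27 ± 0.14 (adjusted p = 0.249). Its level was within the upper range of the chemoreceptors, as given above.

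Gad2 minus Gad1, taken within each array, does not depend on a shift common to both probe sets. The lower scale of the arrays numbered 1 need not shift both alike. The tests of this quantity have no term for that number, and no IgG-IP array shares that scale. It was 2.64, 2.70 and 2.95 in 4ET-IP 1, 2 and 3, was 0.73, 1.94 and 1.25 in IgG-IP 2, 3 and 4, and was 1.28, 1.46, 1.34 and 1.62 in inputs 1 to 4. All 3 4ET-IP arrays, the one numbered 1 included, lay above all 7 others. The means were 2.76 ± 0.16 (SD, n = 3) in 4ET-IP, 1.30 ± 0.60 (SD, n = 3) in IgG-IP and 1.42 ± 0.15 (SD, n = 4) in input. A two-sided exact permutation test gave p = 0.1 for 4ET-IP over IgG-IP and p = 0.0571 for 4ET-IP over input, which are the smallest values those numbers of arrays allow, and an adjusted p of 0.3 for each over the 6 tests of both paralogue pairs. This pair was examined after the values had been seen.

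The same quantity for the Gsx genes was less separated. Gsx2 minus Gsx1 was 2.26, 1.20 and 2.00 in 4ET-IP, was 0.90, 1.35 and 1.22 in IgG-IP and was 0.53, 1.46, 1.28 and 0.48 in input, so that 4ET-IP 2 lay within the range of the others. The exact permutation test gave p = 0.3 over IgG-IP and p = 0.171 over input (adjusted p = 0.45 and 0.343). Input 1 was at 3.66 for Gsx2 and 3.13 for Gsx1, against means of 5.10 and 4.02 in inputs 2 to 4. The shift of that array was thus not the same for both genes.

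**Figure D3:**
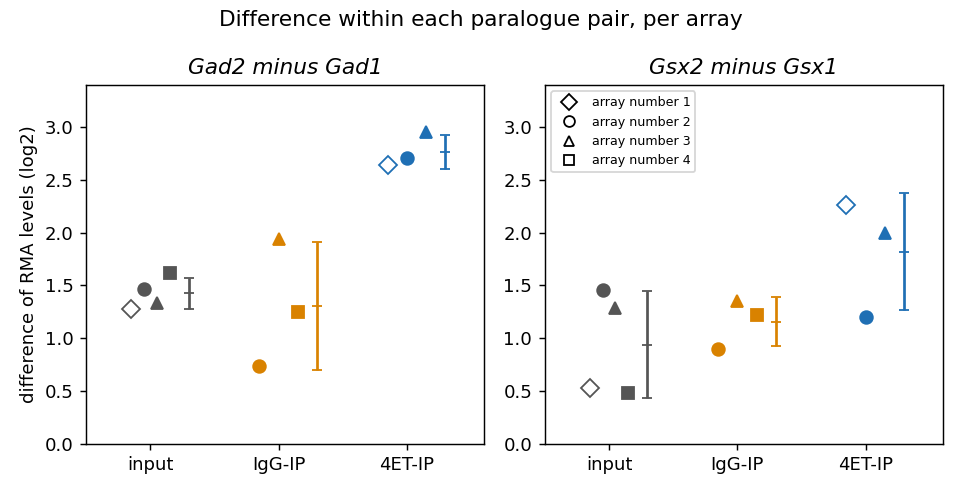
Difference between the RMA levels of Gad2 and Gad1, and of Gsx2 and Gsx1, within each array (y axis, log2) for the 3 groups (x axis). Marker shapes give the array number, and the bars beside the points are mean ± SD. For Gad2 minus Gad1 the 4ET-IP arrays lie at 2.64 to 2.95 and the other 7 at 0.73 to 1.94.

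Several of these genes were higher in the arrays numbered 3. Dlx5 was at 7.62 in input 3, 7.67 in IgG-IP 3 and 7.59 in 4ET-IP 3. It was at 6.59, 6.75 and 6.86 in inputs 1, 2 and 4, at 7.09 and 7.12 in IgG-IP 2 and 4, and at 7.10 and 7.07 in 4ET-IP 1 and 2. The lowest of the arrays numbered 3 was thus 0.48 above the highest of the other 7, the largest such gap of all 22180 genes, and the next, of Fam241a, was 0.39. All 3 arrays numbered 3 lay above the other 7 at 0.996% of all genes, and Dlx5 was the 1 gene of the 10 that did so. The long noncoding RNA Dlx6os1, which comes from the Dlx5 and Dlx6 locus, did so too, with 5.80, 6.63 and 6.77 in the arrays numbered 3 and at most 5.76 elsewhere, a gap of 0.04. This pattern was found after the values had been seen, and was not tested.

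Dlx2 and Gsx2 followed the same numbers within groups. Of the 10 genes, Dlx2, Dlx5 and Gsx2 were highest in the array numbered 3 in each of the 3 groups among the arrays numbered 2 to 4, beside 5.64% of all genes. Input 3 was the highest of inputs 2 to 4 at 7 of the 10 genes (32.5% of all genes), and IgG-IP 3 the highest of its group at 6 (30.6% of all genes). 4ET-IP 3 lay above 4ET-IP 2 at 6 of the 10 (49.4% of all genes). Among 18 dorsal cortex genes input 3 was highest at 4, IgG-IP 3 at 2 and 4ET-IP 3 at 9, and none was highest in all 3 groups. The median deviation of the 10 genes from their group means was 0.24 in input 3 and 0.24 in IgG-IP 3, against 0.00 and 0.01 over all genes, and 0.05 in 4ET-IP 3. In inputs 2 and 4 it was -0.13 and -0.093, in IgG-IP 2 and 4 -0.27 and -0.055, and in 4ET-IP 2 -0.046.

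**Figure D4:**
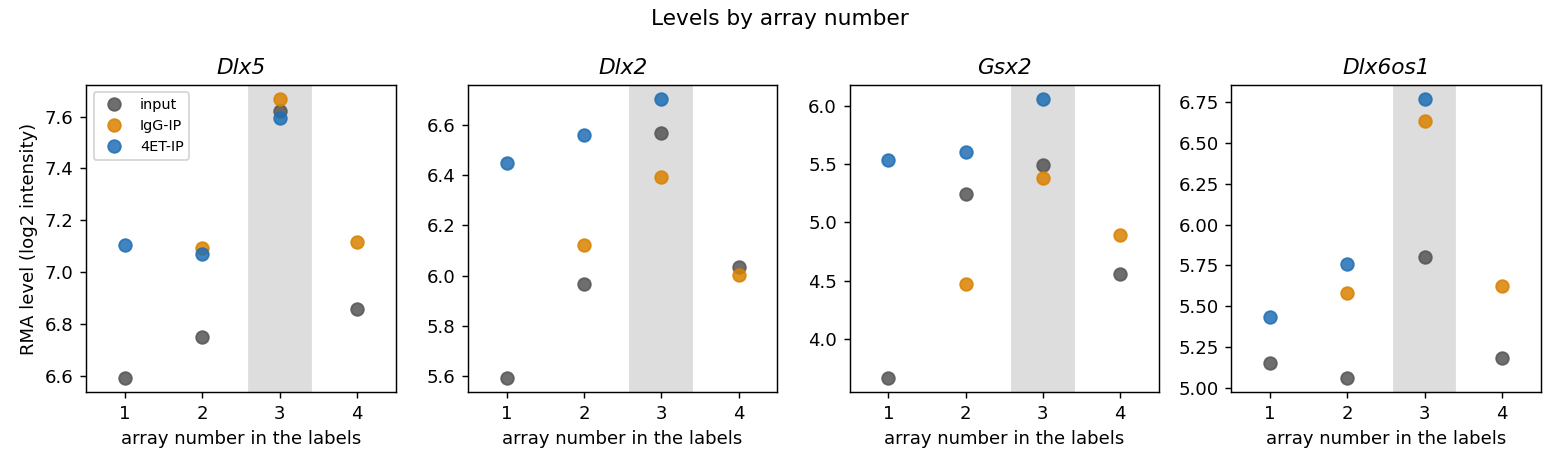
RMA level (log2 intensity, y axis) of Dlx5, Dlx2, Gsx2 and Dlx6os1 by the array number in the labels (x axis), with the 3 groups in colour and number 3 shaded. Dlx5 lies at 7.59 to 7.67 in the arrays numbered 3 and at most at 7.12 in the others, and each panel has its own y range.

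The 10 genes varied together only in part. Over the 8 arrays numbered 2 to 4, Dlx2 correlated with Gsx2 at 0.82, with Isl1 at 0.78, with Gad2 at 0.77 and with Dlx5 at 0.76, and Gad2 with Gsx2 at 0.79. Gad1 ran against Gad2 (-0.63) and Gsx2 (-0.63), and Nkx2-1 against Dlx2 (-0.60). These are Pearson correlations that mix groups and array numbers and are given as a description. Other genes were ranked by their correlation with the mean of the 10 over the 8 arrays. Symbols starting with Gm and a digit, Mir, Snor, Scarna, Olfr or Vmn, or ending in Rik, were left out. The highest were Trim71 (0.98), Tfap2e (0.93), Zfp574 (0.93), Abcg1 (0.93) and Igh-VS107 (0.92). They head a ranking of all remaining genes over only 8 arrays and were not tested.

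Other genes of ventral precursors, migrating interneurons and GABA function were measured through a list of 58, of which 50 had a probe set of their own. In 4ET-IP over IgG-IP 3 of the 50 were higher and 0 lower, beside 7.57% of all genes called higher and 2.92% called lower, so the share is near that of all genes. The median difference was 0.16, and -0.10 with group alone, where 0 were called. With the replicate block 7 were higher. Nr2f2, a nuclear receptor of the caudal eminence, was higher by 0.82 ± 0.14 (adjusted p = 0.00450 in limma). Nrp2, a semaphorin receptor of migrating interneurons, was higher by 0.68 ± 0.18 (adjusted p = 0.0297) and Zfp503, a zinc finger gene of striatal neurons, by 0.69 ± 0.19 (adjusted p = 0.0380). At the ends of the range were Ackr3 (0.83), a receptor for the chemokine Cxcl12, and Nrp1 (0.77) above, and Satb1 (-0.33), Lhx8 (-0.21) and Sox6 (-0.21) below, none of them called.

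These calls varied in strength. That of Nr2f2 was kept without any single array (adjusted p from 0.00517 to 0.0409) and in the 8 arrays (0.87, adjusted p = 0.00748), and lost with group alone (0.65, adjusted p = 0.259). That of Nrp2 was lost on leaving out 4ET-IP 2 or 3 or IgG-IP 3 or 4 (0.0568 to 0.190). That of Zfp503 was lost on leaving out 4ET-IP 1 or 2, IgG-IP 2 or any single input (0.0512 to 0.184) and in the 8 arrays (0.61, adjusted p = 0.0844). Both were lost with group alone (adjusted p = 0.427 for Nrp2 and 0.214 for Zfp503). Over all alternatives adjusted p ranged from 0.00179 to 0.259 for Nr2f2, from 0.0141 to 0.427 for Nrp2 and from 0.0186 to 0.214 for Zfp503.

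Against input, 10 of the 50 were higher in 4ET-IP and 1, Sst, was lower, beside 10.4% of all genes called higher and 8.86% called lower. With group alone 3 were higher and 0 lower, and with the replicate block 17 and 2. Among the higher ones were Nrp2 (1.21), Sp8 (0.98), Nr2f2 (0.87, adjusted p = 0.0509 with group alone), Ackr3 (0.82), Meis1 (0.78), Zic1 (0.74), Foxp1 (0.62) and Foxp2 (0.55). Ptch1, the receptor of sonic hedgehog, was higher by 1.19 ± 0.14 and Cxcr4, the Cxcl12 receptor of migrating interneurons, by 0.86 ± 0.13 (adjusted p = 1.98e-04 and 5.90e-04 in limma). IgG-IP exceeded input at both as well, by 0.84 ± 0.15 and 0.60 ± 0.13 (adjusted p = 0.00210 and 0.00741), and 4ET-IP over IgG-IP was not called for either (0.36 and 0.26, adjusted p = 0.196 and 0.315). Of the other higher ones named, only Nrp2 and Nr2f2 were also called in 4ET-IP over IgG-IP. For Foxp2 that difference was -0.081, and IgG-IP exceeded input by 0.63 ± 0.18. With group alone Ptch1 lost both calls over input (adjusted p = 0.0683 and 0.0766) and Cxcr4 that of IgG-IP (0.0791, and 0.0579 on centred arrays).

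Sst, the neuropeptide of a class of medial eminence interneurons, was lower in both precipitates. Its levels were 7.18, 8.06, 8.78 and 9.14 in inputs 1 to 4, were 6.82, 7.58 and 8.01 in IgG-IP 2, 3 and 4, and were 6.06, 6.84 and 7.63 in 4ET-IP 1, 2 and 3. Each precipitate lay below the input of the same number. It differed from input by -1.33 ± 0.31 in 4ET-IP (adjusted p = 0.00944 in limma) and by -1.16 ± 0.32 in IgG-IP (adjusted p = 0.0280), and 4ET-IP over IgG-IP was -0.18 (adjusted p = 0.828, and 0.033 with the replicate block). The first call was lost without 4ET-IP 2 (adjusted p = 0.0729) and with group alone (adjusted p = 0.102). The second was lost without IgG-IP 2 or 3 or input 3 or 4 (from 0.0540 to 0.0947), with group alone on centred arrays (0.0641) and with group alone (0.404). Both differences share the input arrays. Over all alternatives adjusted p ranged from 3.50e-04 to 0.102 and from 2.80e-04 to 0.404.

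IgG-IP over input gave 5 of the 50 higher and 2 lower, a share near the 16.6% of all genes called in either direction. With group alone 0 were called, and with the replicate block 9 were higher and 3 lower. The 2 lower ones were Sst and Calb2 (-0.97 ± 0.22, adjusted p = 0.0101 in limma), the gene of the calcium-binding protein calretinin. Beside Ptch1 and Cxcr4 the higher ones were Foxp2, Sox6 and Nrp2, the last by 0.53 ± 0.16 (adjusted p = 0.0434, and up to 0.158 in the alternatives, 9 of which lost the call).

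Dorsal cortex genes are given for comparison. Of 18 measured, 6 were higher and 0 lower in 4ET-IP than in IgG-IP (7.57% of all genes higher), with a median of 0.41. The count was 0 with group alone and 3 with group alone on centred arrays. Over input 7 were higher and 0 lower (10.4% of all genes higher), with a median of 0.45, and the count was 2 with group alone and 10 with the replicate block. Neurog2 was higher than in IgG-IP by 0.72 ± 0.16 (adjusted p = 0.0136 in limma, 0.539 with group alone and 0.0515 without 4ET-IP 3) and Emx1 by 0.61 ± 0.18 (adjusted p = 0.0488, lost in 13 of the 17 alternatives, with adjusted p up to 0.307). Pax6 (0.18), Eomes (0.12) and Tbr1 (-0.11) were not called. Leaving out input 1 or 4ET-IP 1 gives the fit of the 8 arrays numbered 2 to 4. The 13 losses of Emx1 thus count that fit more than once. In IgG-IP 2 dorsal genes were higher than in input and 1 lower (16.6% of all genes called), and 0 were called with group alone. The ventral and dorsal differences were not tested against each other.

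Genes of other cell types were examined in the same way. In 4ET-IP over IgG-IP 2 of 12 thalamus and hypothalamus genes (Lhx1 and Slc17a6), 1 of 6 choroid plexus genes (Otx2), 2 of 9 meningeal genes (Foxc1 and Foxd1), 1 of 7 endothelial genes (Kdr) and 1 of 5 erythroid genes (Slc4a1) were higher, and none was lower, beside 7.57% of all genes called higher. With group alone the thalamus, meningeal and erythroid counts were 0, and with the replicate block 2 meningeal genes were lower and 2 endothelial genes higher. Slc17a6 is also on the dorsal list. Of 9 microglia genes limma called 0, with 2 at an unadjusted p under 0.05. Of their defining genes none was called, with log2 differences of 0.10 for Ttr of the choroid plexus, 0.08 for Col1a1 of the meninges, 0.58 for Pecam1 of endothelium, 0.04 for Csf1r of microglia and 0.14 for Hbb-y of embryonic red cells.

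The summed level of each list, as log2 of the sum of linear intensities in the arrays numbered 2 to 4, shows how the lists stood in each group. For the 10 genes it was 8.56 to 9.06 in input, 8.55 to 9.06 in IgG-IP and 9.03 to 9.27 in 4ET-IP, and these ranges overlapped. The thalamus and hypothalamus list was at 9.51 to 9.62 in input, 9.84 to 9.97 in IgG-IP and 10.32 to 10.45 in 4ET-IP, and the microglia list at 8.04 to 8.07 in input, 7.95 to 8.34 in IgG-IP and 8.38 to 8.40 in 4ET-IP. In both of these lists 4ET-IP 2 and 3 lay above the other arrays numbered 2 to 4. The same held for the other ventral and interneuron genes, at 12.07 to 12.30 in input, 12.26 to 12.42 in IgG-IP and 12.52 to 12.55 in 4ET-IP. It also held for the dorsal cortex genes, at 12.68 to 12.89 in input, 12.86 to 13.12 in IgG-IP and 13.18 to 13.21 in 4ET-IP. A sum follows the brightest genes of a list. The median gene level of the microglia list was 4.45 in input, 4.22 in IgG-IP and 4.25 in 4ET-IP. In the fit of 4ET-IP over input, 4 of the 9 microglia genes had a difference above 0, and their median was -0.07. The choroid plexus list was at 6.84 to 7.03 in input, 6.72 to 7.02 in IgG-IP and 6.998 to 7.17 in 4ET-IP. The meningeal list was at 7.33 to 7.99 in input, 7.57 to 8.07 in IgG-IP and 7.899 to 8.03 in 4ET-IP, and the endothelial list at 7.88 to 8.10 in input, 7.38 to 7.65 in IgG-IP and 8.04 to 8.21 in 4ET-IP. The erythroid list was at 10.92 to 11.64 in input, 10.27 to 11.03 in IgG-IP and 10.80 to 10.94 in 4ET-IP. Without detection calls these levels do not show which genes of the lists were present, and the part of these cells in the results was not tested.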

How the data were processed

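Each of 10 samples (4 input, 3 IgG-IP, 3 4ET-IP) was hybridised to an Affymetrix Mouse Gene 2.0 ST array. Per the submitters' processing notes, the authors ran RMA in Expression Console, and the deposited table holds its log2 values. The versions and the probe sets' genome build are not given in the sources used here. Of 41345 probe sets 23521 carried 1 gene symbol, 1814 several and 16010 no annotation entry, and of the single-symbol ones 23328 matched the RefSeq gene table. For each of 22180 genes the probe set with the highest mean was kept. Precision is limited by the number of arrays.

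The test was limma 3.58.1 (R 4.3.3, lmFit and eBayes, 6 residual degrees of freedom) on the log2 values, with terms for group and for the arrays numbered 1, and a Benjamini-Hochberg threshold of 0.05 over all genes. Each ± beside a difference is the standard error of that fit. The script was tested on simulated data. Exact permutation tests used scipy 1.17.1, and figures matplotlib 3.10.9 in Python 3.11.15.

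All 10 genes are reported whatever their test. Of the further ventral list, called genes and the 3 highest and 3 lowest differences over IgG-IP are named, others by group. Lists of dorsal cortex, thalamus and hypothalamus, choroid plexus, meningeal, endothelial, microglia and erythroid genes were fixed by symbol. The members, the lists and the term for the arrays numbered 1 were chosen with earlier results of these data known. Alternatives were group alone, group alone on arrays centred on their medians, the 8 arrays numbered 2 to 4, the replicate block, the mean of probe sets, the brighter genes only, an intensity trend and leaving out each array.

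Same-number deviations of 4ET-IP and input from the group means correlated at 0.62, 0.24 and 0.28 across genes, above the pairing criterion of 0.1, but at 0.04 and 0.01 without the arrays numbered 1. IgG-IP and input gave -0.02, 0.08 and 0.32, and 0.14, 0.091 and 0.25 without the arrays numbered 1, where 1 of the 3 pairs missed the criterion. 4ET-IP and IgG-IP, which share the numbers 2 and 3, gave -0.07 and 0.02, and 0.015 and 0.031 without those arrays.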

Additional observations from a re-analysis of the deposited data

Results flagged for a closer look

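Lhx6 was lowest in input 1, at 4.19, while inputs 2, 3 and 4 lay between 5.27 and 5.33. The gap to the nearest input is 0.950 of the range of the 4, above the critical value of Dixon's test at 95%, and 10 genes were examined in this way, while chance alone marks about 1 group in 20. Input 1 is an array on the lower scale, where 4ET-IP 1 had 4.35. The critical value and the rate of 1 in 20 assume 4 arrays on the same scale. The low value thus cannot be told apart from the lower scale of that array.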

How the results depend on the processing

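Gad2 was called over IgG-IP and over input in the 8 arrays without input 1 and 4ET-IP 1 and with group alone on centred arrays, but not with group alone, while the calls of Gsx2 over IgG-IP and of Dlx2 were lost in all 3. The count of the 10 genes called in 4ET-IP over IgG-IP was 2, and 1 in the 8 other arrays, 1 with group alone on arrays centred on their medians, 1 with the replicate block and 0 with group alone. It was 2 with the mean of probe sets, among the brighter genes only (5 of the 10 genes were tested there) and with an intensity trend, and 0 to 2 without 1 array, with 0 on leaving out 4ET-IP 3. Each of the 10 genes has 1 probe set, so the mean of probe sets leaves their values as they were. The brighter genes and the intensity trend also keep their fitted differences, so these settings could change only the adjusted p. Over input the count was 3, and 1 in the 8 arrays, 0 with group alone, 2 with group alone on centred arrays and 1 to 3 without 1 array. Leaving out input 1 or 4ET-IP 1 gives the fit of the 8 arrays, since the other of them then has a term of its own. IgG-IP over input stayed at 0 throughout. The replicate block ended the call of Gsx2 over IgG-IP and of Emx1 over IgG-IP, and no other call of the 10 genes, and changed none of the other calls of Nrp2, Zfp503, Nr2f2, Sst, Cxcr4, Ptch1, Emx1 and Neurog2. Over all genes 2326 were called in 4ET-IP over IgG-IP, 4274 in 4ET-IP over input and 3688 in IgG-IP over input, against 299, 1361 and 1206 with group alone. On centred arrays, again with group alone, they were 1510, 2662 and 2725.

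Signs turned only at differences that were not called. With group alone they became -0.037 for Dlx5 and -0.25 for Lhx6 over IgG-IP in 4ET-IP, -0.076 for Lhx6 over input, and 0.17, 0.17 and 0.18 for Gad2, Gsx2 and Lhx6 in IgG-IP over input. With group alone on centred arrays they became -0.060 and -0.049 for Lhx6 in the comparisons of 4ET-IP, and -0.033 for Dlx2, 0.0065 for Gad2, 0.0079 for Gsx2, -0.12 for Nkx2-1 and 0.011 for Lhx6 in IgG-IP over input. In the 8 arrays they became -0.057 for Lhx6 over input in 4ET-IP and -0.017 for Dlx2 in IgG-IP over input. The replicate block gave -0.025 for Dlx6 and 0.033 for Sst in 4ET-IP over IgG-IP. Without 1 array, Dlx5 ranged from -0.066 to 0.30, Lhx6 from -0.14 to 0.30 and Sst from -0.50 to 0.14 in 4ET-IP over IgG-IP. Lhx6 ranged from -0.076 to 0.14 in 4ET-IP over input. In IgG-IP over input the ranges were -0.079 to 0.21 for Dlx2, -0.012 to 0.19 for Gad1, -0.30 to 0.16 for Gad2, -0.28 to 0.17 for Gsx2, -0.12 to 0.22 for Nkx2-1, -0.29 to 0.15 for Lhx6 and -0.036 to 0.10 for Nr2f2. The causes were not tested.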
